A study of Saccharomyces cerevisiae with 2 samples.

Results

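The 10 genes described here are XRN1, DCP1, DCP2, PAT1, LSM1, EDC1, EDC3, SCD6, DHH1 and PBP1 of the budding yeast Saccharomyces cerevisiae. They were grouped under decapping and 5' to 3' mRNA decay and cover its enzymes as well as activators and other associated proteins. They were chosen by name among the gene spots of both scanner files, and all 10 of them were found among 6256 genes on the array. For 8 genes the name in the files was the same. XRN1 is listed there under its older name KEM1 (YGL173C) and EDC3 under its systematic name YEL015W, and both were matched through the RefSeq gene table of assembly R64. Each gene has 1 probe. The probes of XRN1, DCP1 and PAT1 lie in 1 spot each and those of the other 7 genes in 2 spots, which makes 17 spots on each array.

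RNA came from 2 strains of the haploid laboratory background BY4741, which lacks LEU2, URA3 and MET17 and carries a partial deletion of HIS3. One was wild type for YDR374C and the other carried a deletion of it, and the sources used here do not name what replaced the gene. Both grew in SD, a defined glucose medium, to mid-exponential phase at OD600 0.7, and 0.2 ug of total RNA was labelled. On each of 2 two-colour arrays of 1 slide the wild-type RNA was green (Cy3) and the deletion RNA red (Cy5). With no dye swap, an effect of the dye on a gene and an effect of the strain cannot be told apart. Whether the arrays hold separate cultures is not stated, so the spread between the 2 arrays may be technical. The SEs and p-values come from limma's moderated fit, which pools the spread over all tested genes (prior df 13.2). They therefore rest mostly on that pooled spread and little on a gene's own 2 arrays. Equal amounts of RNA were compared, so less transcript per cell and fewer cells that make it cannot be told apart either.

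Most yeast mRNAs are degraded after their poly(A) tail has been shortened. The cap at the 5' end is then removed by the decapping enzyme, and the exonuclease Xrn1 digests the body of the message from that end. A ring of Lsm proteins with Pat1 binds shortened messages and, with the helicase Dhh1 and the Edc proteins, brings about decapping, often in cytoplasmic granules called P-bodies. YDR374C encodes Pho92, a protein whose YTH domain binds methylated RNA and which has been tied to mRNA turnover through the CCR4-NOT deadenylase. The comparison therefore asks, for these genes, whether RNA of the decay machinery itself differs when Pho92 is removed.

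Array 1 had a median gene spot of 1597 in green and 2105 in red, and array 2 of 2371 and 3105, over local background medians of 36 to 42. Negative control spots read higher than that background, with medians of 140 in green and 126 in red on array 1. On array 2 their medians were 183 and 174. No spot of the 10 genes was saturated or marked as an outlier, and all 10 genes passed the filter on dim genes. YDR374C itself had a log2 ratio, red over green, of -0.24 on array 1 and -0.22 on array 2. Of its 2 spots, 1 was never scored by the scanner as well above background. The other always was, and array 1 gave it a normalized intensity of 463 in green against 391 in red, array 2 one of 612 against 593, so its signal did not vanish in the red channel. Probe positions within the gene are not used here, so this does not check the deletion, and the red channel is called the RNA labelled as deletion.

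Of the 10 genes, 5 were higher and 3 were lower in the RNA labelled as deletion, and 2 did not pass the test. LSM1, a subunit of the Lsm ring, and EDC3, a scaffold of P-bodies, rose most, by 0.43 ± 0.035 and 0.26 ± 0.035 on the log2 scale (SE of limma's fit, n = 2 arrays). EDC1, an activator of the decapping enzyme, fell by 0.36 ± 0.038, and the helicase gene DHH1 fell by 0.27 ± 0.036. The largest of these differences, that of LSM1, was 1.35-fold. The test was limma's moderated test of the log2 ratio against 0 with a Benjamini-Hochberg adjusted p under 0.05 over 5641 tested genes. That rule called 73.1% of all tested genes, 36.4% as higher and 36.7% as lower, against 80% of the 10 genes. The median log2 ratio of the 10 genes was 0.07, beside -0.0019 over all tested genes. Their median absolute log2 ratio was 0.15, beside 0.17 over all tested genes. In share called and in size, the 10 genes were thus close to the genes of these arrays at large.

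**Figure D1:**
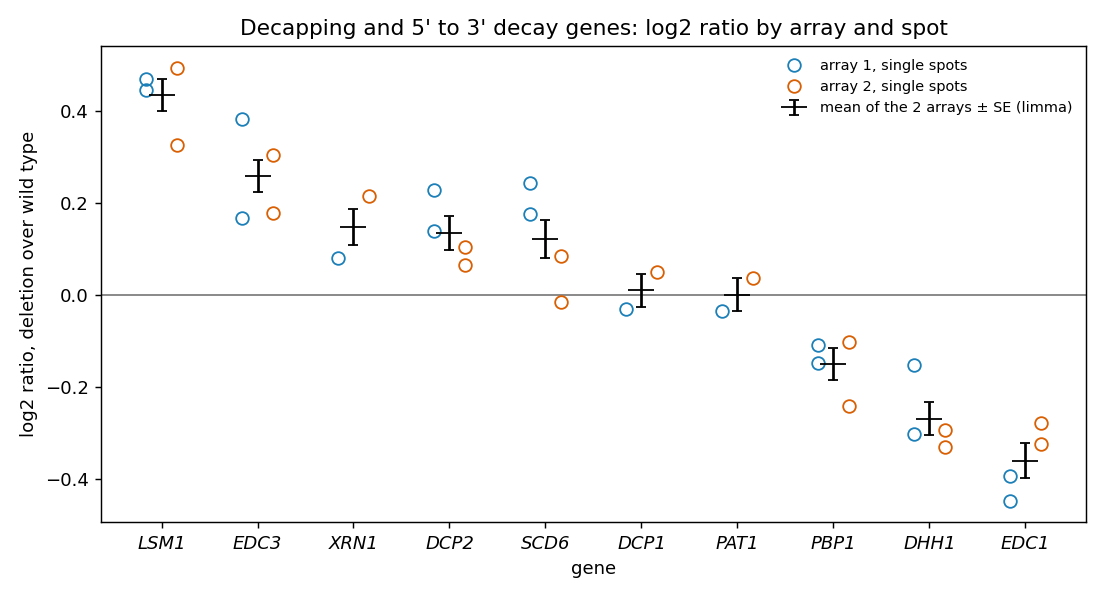
Log2 ratio of deletion over wild type for the 10 genes, with an open circle for each spot on array 1 (blue) and array 2 (orange) and a black bar for the mean of both arrays ± SE. All circles of LSM1, EDC3, XRN1 and DCP2 lie above 0, all those of PBP1, DHH1 and EDC1 lie below it, and those of SCD6, DCP1 and PAT1 lie on both sides.

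The decapping enzyme consists of the catalytic subunit Dcp2, which cuts the cap from the message, and its activator Dcp1. DCP2 read 1196 in the wild-type channel and 1359 in the deletion channel on array 1 and 2164 and 2295 on array 2, as normalized intensities averaged over its spots. Red was above green in all 4 spot measurements, and the log2 ratios of the arrays were 0.18 and 0.08. The mean was 0.13 ± 0.037 (SE, n = 2; limma adjusted p = 0.00435), and array 2 alone gives a value more than 1.5 times smaller. DCP1 went from 332 in the wild-type channel to 325 in the deletion channel on array 1 and from 572 to 592 on array 2. Its channels exchanged order between the arrays, with log2 ratios of -0.03 and 0.05. Its mean of 0.01 ± 0.036 did not pass (limma adjusted p = 0.811), and the 95% interval of the fit ran from -0.07 to 0.09. The intervals of DCP1 and DCP2 (0.06 to 0.21) overlap, and the difference between the subunits was not tested.

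XRN1 encodes the exonuclease that degrades decapped mRNA in the cytoplasm. It read 11731 (wild type) and 12409 (deletion) on array 1 and 21806 and 25298 on array 2. The deletion channel was higher on both arrays, but the log2 ratios of 0.08 and 0.21 differed by nearly as much as their mean of 0.15 ± 0.039 (SE, n = 2; limma adjusted p = 0.00317). Array 1 alone gives 0.08. When the arrays were centred on their medians in place of the loess fit, which corrects the ratio for intensity, the value was 0.38, so the size for this bright probe depends on the normalization.

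The Lsm1-Lsm7 ring binds the 3' end of shortened messages, and Pat1 links it to the decapping enzyme. LSM1 encodes the subunit that sets this cytoplasmic ring apart from the nuclear one. It read 11254 (wild type) and 15455 (deletion) on array 1 and 14875 and 19773 on array 2. The deletion channel was higher in all 4 spot measurements, with log2 ratios between 0.33 and 0.49. The mean of 0.43 ± 0.035 was a 1.35-fold difference (SE, n = 2; limma adjusted p = 4.45e-08), larger in absolute size than 87.8% of all tested genes, and 0.67 after median centring. PAT1 went from 1237 in the wild-type channel to 1207 in the deletion channel on array 1 and from 2347 to 2408 on array 2. Its channels changed order between the arrays, with log2 ratios of -0.04 and 0.04. Its mean was 0.00067 ± 0.036 (limma adjusted p = 0.988) with a 95% interval from -0.08 to 0.08, which does not reach the interval of LSM1 (0.36 to 0.51).

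Most of the other Lsm ring genes were higher. Lsm2 to Lsm7 are shared with the nuclear ring that serves splicing, in which Lsm8 takes the place of Lsm1. Of these 7 listed genes 5 were higher and none was lower, beside 36.4% and 36.7% of all tested genes, with a median log2 ratio of 0.30. LSM3 had log2 ratios of 0.84 and 0.75 on arrays 1 and 2, with a mean of 0.79 ± 0.036 (1.73-fold, limma adjusted p = 2.45e-10), and ranked at position 51 by absolute size among all tested genes. LSM4 had 0.82 and 0.69, with a mean of 0.75 ± 0.038. Both were above each of the 10 genes described here in size. LSM7 (0.45 ± 0.034), LSM2 (0.30 ± 0.034) and LSM5 (0.21 ± 0.034) also passed, and LSM6 (-0.0025 ± 0.035) and LSM8 (-0.04 ± 0.035) did not. These 5 genes are named after their values were seen. The values of the 5 higher genes stayed on the same side of the threshold under the 10 other settings tested against 0. LSM8 passed as lower after median centring (-0.10, limma adjusted p = 0.0266, against a highest adjusted p of 0.515 under other settings tested against 0).

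**Figure D2:**
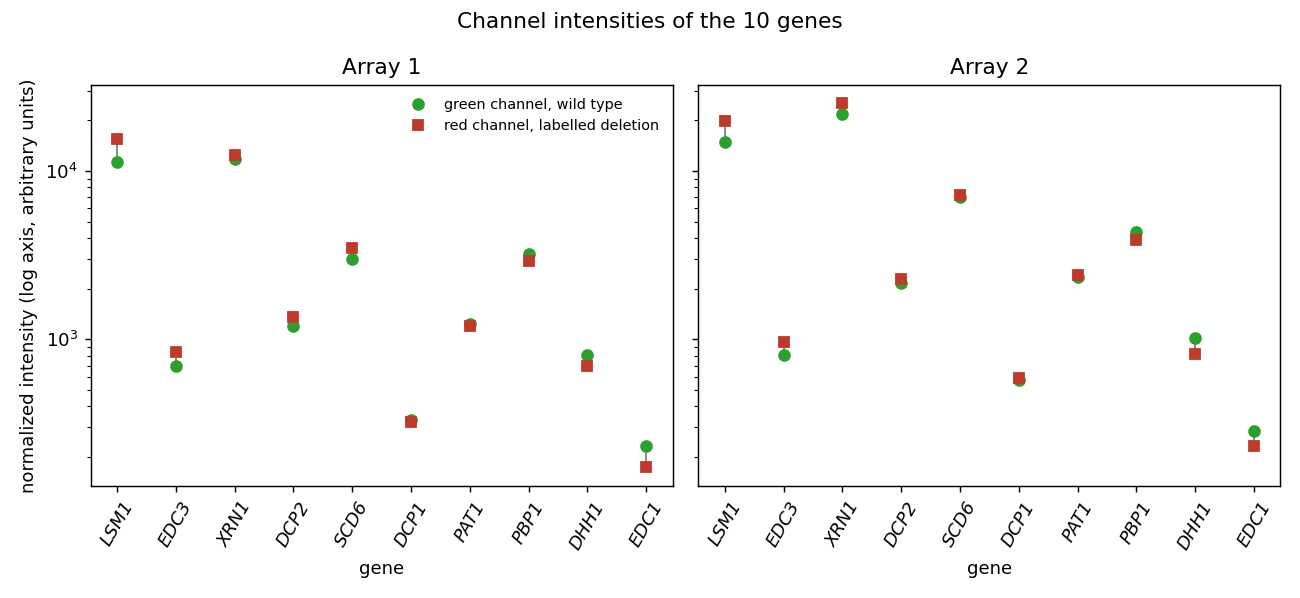
Normalized intensity of each of the 10 genes in the green wild-type channel (circles) and the red channel labelled as deletion (squares) on array 1 and array 2, on a log axis in arbitrary units. Only the pair of marks of 1 gene on 1 array is comparable: the square of LSM1 lies above its circle on both arrays (15455 over 11254 and 19773 over 14875) and that of DHH1 lies below it (693 under 810 and 820 under 1018).

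The genes of the decapping enhancers went in different directions. Edc1 is a small protein that activates the decapping enzyme directly. EDC1 read 233 (wild type) and 174 (deletion) on array 1 and 288 and 233 on array 2. Red was below green in all 4 spot measurements, with log2 ratios between -0.45 and -0.28. The mean was -0.36 ± 0.038 (SE, n = 2; limma adjusted p = 6.98e-07). On array 2 neither red spot was well above background, so array 2 enters this mean with a value near background. Array 1, where both channels were well above background, gave -0.42. Before correction the EDC1 spots on array 1 read 293 and 259 in green and 272 and 245 in red. The negative control medians there were 140 and 126, so this gene is dim on array 1 too. EDC1 was not tested when both channels on both arrays had to be above background. Taken from the log ratios of the scanner software, the value was -0.64 and was still called. URA3, which BY4741 lacks, was also called, higher by 0.33 ± 0.038 (limma adjusted p = 2.09e-06). The source of the URA3 signal was not tested. HIS3, partly deleted in BY4741, was tested and not called (-0.03 ± 0.038, limma adjusted p = 0.515). No spot of LEU2 or MET17, which BY4741 also lacks, was well above background, so neither gene was tested. EDC2, which encodes the related protein Edc2 and is named after its value was seen, was also lower, by -0.18 ± 0.036 on the log2 scale.

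Edc3 holds Dcp2, Dhh1 and other proteins together in P-bodies. EDC3 read 691 (wild type) and 837 (deletion) on array 1 and 813 and 961 on array 2. Red was above green in all 4 spot measurements, but the duplicate spots differed by 0.22 on array 1 and 0.12 on array 2, more than the arrays did (0.28 and 0.24). The mean was 0.26 ± 0.035 (limma adjusted p = 9.31e-06). Scd6, a protein with an Lsm domain and RGG repeats, represses translation initiation and promotes decapping. SCD6 went from 3011 in the wild-type channel to 3482 in the deletion channel on array 1 and from 6987 to 7158 on array 2. Its log2 ratio was 0.21 on array 1 and 0.03 on array 2, where 1 of 2 spots lay below 0, at -0.016. The mean of 0.12 ± 0.041 passed (limma adjusted p = 0.0157), but the call was lost with the scanner software's log ratios (0.12, adjusted p = 0.0886) and also on the series table's values (0.12, adjusted p = 0.101). Over the 10 other settings tested against 0 its limma adjusted p ran from 4.95e-05 to 0.101, and either array alone moves the value by over 1.5 times.

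Dhh1 is a DEAD-box helicase that slows translation and activates decapping. DHH1 read 810 (wild type) and 693 (deletion) on array 1 and 1018 and 820 on array 2. The deletion channel was lower in all 4 spot measurements, with array log2 ratios of -0.23 and -0.31. The mean was -0.27 ± 0.036 (SE, n = 2; limma adjusted p = 9.28e-06), and the values under the other settings lay between -0.33 and -0.25. Pbp1, the yeast relative of ataxin-2, binds poly(A)-binding protein and affects polyadenylation and stress granules. PBP1 went from 3195 in the wild-type channel to 2923 in the deletion channel on array 1 and from 4372 to 3879 on array 2. It was lower in all 4 spot measurements, with a mean log2 ratio of -0.15 ± 0.035 (limma adjusted p = 0.00131).

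Genes of proteins that bind Pbp1 went in both directions. MKT1, whose product acts with Pbp1 on the mRNA of the HO endonuclease, had log2 ratios of 0.71 on both arrays (mean 0.71 ± 0.034, limma adjusted p = 3.87e-10). PBP4, which encodes a Pbp1-binding protein, had 0.61 and 0.53 (mean 0.57 ± 0.036), and both of its spots were saturated in red on array 2, so that value is limited by the scanner. In contrast, LSM12, whose product also associates with Pbp1, had -0.26 and -0.15 (mean -0.21 ± 0.037). So 2 of these 3 genes were higher and 1 was lower, beside 36.4% and 36.7% of all tested genes. Each had 1 sign on both arrays. With saturated spots left out 2 genes were tested, and 1 was higher and 1 lower.

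**Figure D3:**
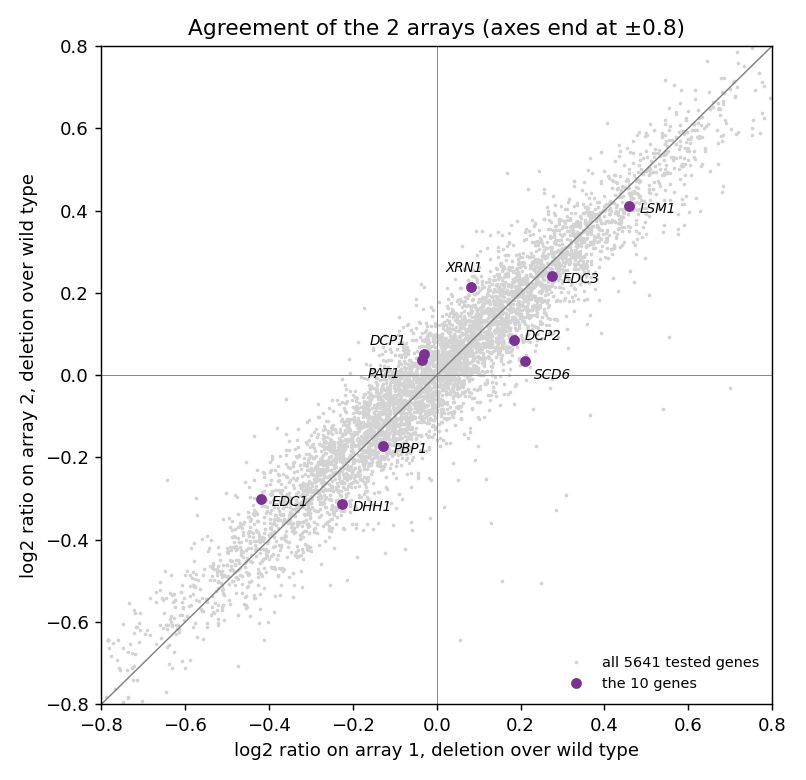
Log2 ratio on array 2 against that on array 1 for all 5641 tested genes (grey) and the 10 decay genes (purple), with the line of equal values. The axes end at ±0.8, which leaves out 64 genes. LSM1 (0.46 and 0.41) is the highest of the 10 genes on both arrays, EDC1 (-0.42) the lowest on array 1 and DHH1 (-0.31) the lowest on array 2, and XRN1 and SCD6 lie off the line.

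Ordered by mean log2 ratio, the genes ran LSM1, EDC3, XRN1, DCP2, SCD6, DCP1, PAT1, PBP1, DHH1 and EDC1. The 95% intervals of LSM1 (0.36 to 0.51) and EDC3 (0.18 to 0.33) did not overlap. All other neighbours in this order had overlapping intervals. Overlap alone does not show that neighbouring values are the same, and the differences between neighbours were not tested. Across all tested genes, which are not independent replicates and share dye and slide, Pearson's r between the arrays was 0.958 and Spearman's rho 0.948. On both arrays 89.6% of those genes had the same sign, as did 8 of the 10 genes. Duplicate spots of 1 gene on 1 array differed by 0.024 to 0.22, and the widest gap, that of EDC3 on array 1, exceeded the absolute mean log2 ratio of 6 of the 10 genes.

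The calls depend on testing against a ratio of exactly 1. Tested against a 1.5-fold change with limma's treat, none of the 10 genes passed, and none had an unadjusted p under 0.05, while 1.45% of all tested genes passed. The scanner software gives its own p-value per spot. With that p under 0.01 in every spot on both arrays and 1 sign, again none of the 10 genes passed, against 5.07% of all tested genes. Of their 34 spot measurements, 1 had a scanner p under 0.01, a spot of EDC1 on array 1 (0.00732), and 5 had one under 0.05. The 4 further ones belonged to LSM1, with 3 spot measurements, and EDC3, with 1.

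The wider decay machinery was described with 38 further genes in 9 groups. Of these, 35 were tested, 20 were higher, 9 were lower and 6 did not pass, so that 82.9% were called, beside 73.1% of all genes. Their median log2 ratio was 0.15. Of the 35 tested genes 2, LSM3 and LSM4, also passed against a 1.5-fold change, beside 1.45% of all tested genes. By the scanner's p-values 4 passed, LSM3, LSM4, DCS2 and MKT1, beside 5.07% of all tested genes. STM1, RAT1 and PAN3 were not tested because their single spots were marked as outliers on at least 1 array. With those spots kept their log2 ratios were 0.50 ± 0.037, 0.07 ± 0.034 and 0.07 ± 0.034, and only that of STM1, a ribosome-binding protein, passed (limma adjusted p = 4.78e-08, against 0.102 and 0.0813).

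The genes that deal with the cap and its remnants went in both directions. DCS1, the scavenger enzyme that hydrolyses the cap left by decay from the 3' end, had log2 ratios of 0.28 and 0.24 (mean 0.26 ± 0.035), and its stress-induced regulator DCS2 had 0.63 and 0.61 (mean 0.62 ± 0.035, limma adjusted p = 1.28e-09). CDC33, the cap-binding translation factor eIF4E, had -0.51 and -0.48 (mean -0.49 ± 0.035, limma adjusted p = 1.07e-08). Its partner TIF4632, a form of eIF4G, was higher by 0.34 ± 0.035. Of the 5 genes of eIF4E, the eIF4G forms and the eIF4E-binding repressors, 3 were higher and 1 was lower. Among all tested genes 36.4% were higher and 36.7% were lower. After median centring 4 of the 5 genes were higher, where TIF4631 passed as well (0.15, limma adjusted p = 0.0027).

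Ski proteins unwind and thread messages into the exosome, the route of decay from the 3' end. Of 4 Ski genes 3 were lower and 1 was higher, beside 36.7% and 36.4% of all tested genes. After median centring 1 was lower and none was higher. The helicase gene SKI2 had -0.58 and -0.51 (mean -0.55 ± 0.036, limma adjusted p = 5.38e-09), and SKI7, which bridges to the exosome, had a mean of -0.18 ± 0.035, but -0.06 and no call after median centring (limma adjusted p = 0.123). SKI8 and SKI3, named after their values were seen, had -0.17 ± 0.035 and 0.15 ± 0.039, and -0.05 and 0.09 without a call after median centring (limma adjusted p = 0.227 and 0.0609). Nonsense-mediated decay removes messages with early stop codons. Of its 5 genes 3 were higher and 1 was lower, beside 36.4% and 36.7% of all tested genes. The largest values were those of UPF3 (0.20 ± 0.035) and the helicase gene NAM7 (0.20 ± 0.035). The lower one, EBS1, had -0.11 ± 0.037 and was not called with the scanner's log ratios (-0.13, limma adjusted p = 0.0831).

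The remaining groups held differences in both directions. Of 4 tested enhancers and repressors 2 were higher and 2 lower, beside 36.4% and 36.7% of all tested genes. After median centring 1 was higher and 1 lower. NGR1, an RNA-binding protein, had 0.36 ± 0.037, and SBP1, which promotes decapping, had -0.20 ± 0.035, but -0.04 with no call after median centring (limma adjusted p = 0.363). PSP2, an RNA-binding protein named after its value was seen, had 0.13 ± 0.038, and 0.07 without a call after median centring (limma adjusted p = 0.131). PAN2, the catalytic subunit of a deadenylase, was lower by -0.32 ± 0.042, and PAB1, the poly(A)-binding protein, was higher by 0.12 ± 0.035, though 0.38 after median centring and not called with the scanner's log ratios (0.08, limma adjusted p = 0.0850). Of 3 tested genes around the nuclear 5' exonuclease, RTT103 was higher (0.16 ± 0.035) and 2 did not pass.

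**Figure D4:**
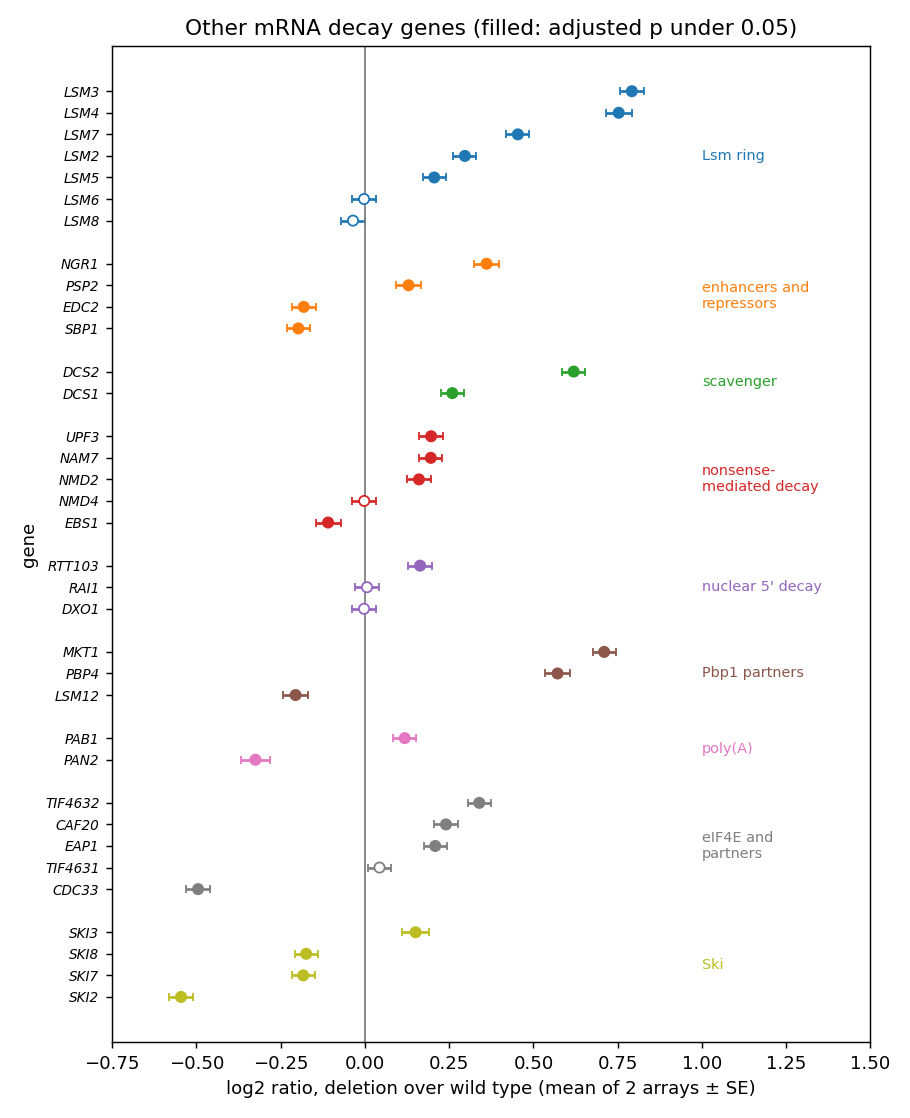
Mean log2 ratio ± SE over 2 arrays for the 35 tested genes of the wider decay machinery, coloured by group, filled where limma's adjusted p was under 0.05. LSM3 (0.79), LSM4 (0.75) and MKT1 (0.71) lie farthest to the right and SKI2 (-0.55) and CDC33 (-0.49) farthest to the left.

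Across the other processing settings the 8 called genes kept their direction. XRN1, LSM1 and SCD6 moved most under median centring, to 0.38, 0.67 and 0.19, and EDC1 with the scanner's log ratios and the series table, to -0.64 and -0.63. DCP1 and PAT1 stayed without a call, and their signs changed between settings.

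**Figure D5:**
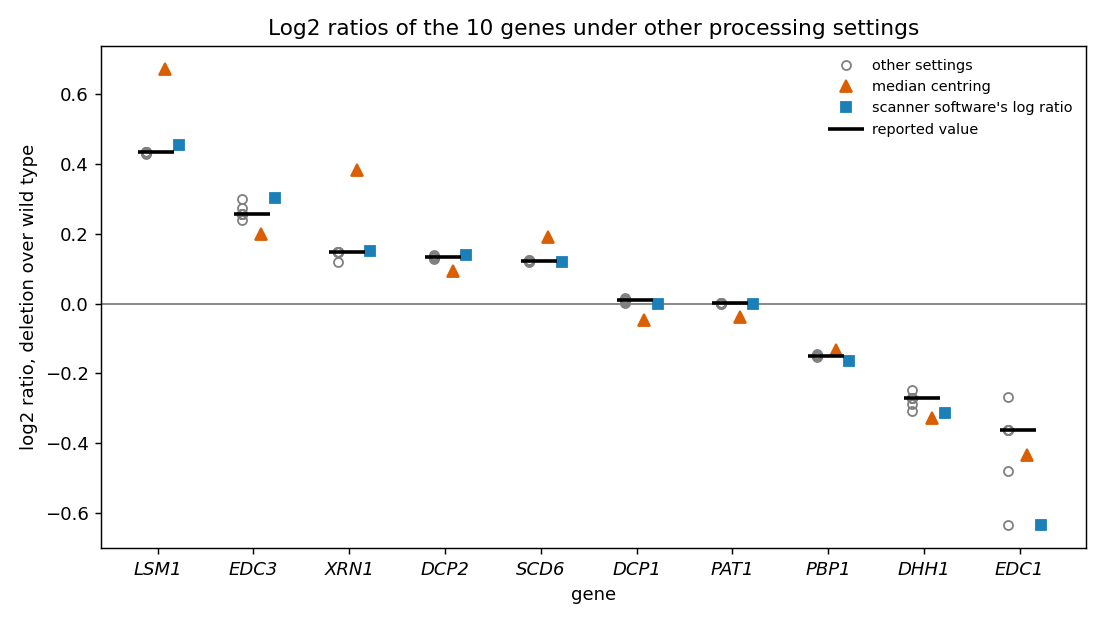
Log2 ratio of the 10 genes as reported (black bar), after median centring (triangles), from the scanner software's log ratio (squares) and under the other settings tested against 0 (circles). LSM1 and XRN1 stand apart after median centring (0.67 and 0.38), and EDC1 spreads from -0.64 to -0.27.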

How the data were processed

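Spot intensity in 2 channels, local background and quality flags come from the deposited scanner files, which Agilent Feature Extraction 9.5.3.1 wrote, per the file headers. Version 9.3.2.1 is the one in the submitters' processing notes. Per the file headers, each deposited spot also carries the log10 ratio of red over green after LOWESS dye normalization, with a p-value. The deposited series table gives log2 values. Set against the scanner ratios they ran red over green (r = 0.994 and 0.990, slopes 0.987 and 0.988, medians -0.0049 and -0.00016). The sources used here do not say how they were averaged and normalized.

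Normexp (offset 50) corrected the mean signals for the local background median, and loess, in which control spots had no weight, normalized each array (limma 3.58.1, R 4.3.3). Outlier spots (6.47% and 8.92% of gene spots) were dropped, saturated spots kept, and all spots of a gene averaged. A gene was tested if each array held at least 1 spot of it not marked as an outlier. On each array it also had to stand well above background in 1 channel or both. This left 5641 of 6256 genes, and 5752 with no filter on dim genes. Log2 ratios were fitted with lmFit and eBayes (prior df 13.2, prior SD 0.0505). The fit was also run on ratios simulated from its own estimated spread without dye effects, which checks the code and not these calls. Intensities printed per channel come from the normalized values and compare within 1 gene on 1 array. Gene names came from RefSeq R64, which held 5756 of 6256 systematic names. The files name no genome build, and coordinates are left out.

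The 10 genes and all lists were chosen with earlier results of these data known. Genes named by rule are the 10, YDR374C, every gene of groups of up to 3, and the 2 largest called genes with 1 sign on both arrays of other groups. TIF4631, EBS1, STM1, RAT1 and the genes marked so in the text fall outside this rule and were named after the results were seen. Alternatives changed the background correction, normalization, source of ratios, outlier, saturation and dimness filters, prior, null hypothesis and arrays used.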

Additional observations from a re-analysis of the deposited data

How the results depend on the processing

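Under the 10 alternatives tested against a ratio of 1, the counts of the 10 genes, of the 38 further decay genes and of all tested genes stayed within 1.5 times of the reported ones (5 higher and 3 lower, 20 and 9, 2051 and 2073). Against a 1.5-fold change with limma's treat, 0 of the 10 genes were higher and 0 lower, with 0 at an unadjusted p under 0.05. There, 2 of the further genes were higher and 0 lower, with 3 at an unadjusted p under 0.05, and 40 of all tested genes were higher and 42 lower. DCP1, not called, turned to -0.046 after median centring and to -0.00085 with the scanner's log ratios. PAT1, not called, turned to -0.00011 with offset 0, -0.038 after median centring, -0.00071 with the scanner's log ratios and -0.0024 with the series table. The causes were not tested. No scaling moved the median of all genes by over 0.1, but loess and median centring place it near 0 by design. That median therefore cannot show a shift shared by all genes. Leaving out 1 array leaves no spread to test, so it gives values but no counts. No paired analysis was possible because both arrays form 1 group of ratios, each of which already pairs the strains. Among the 10 genes and YDR374C, signal over background limits EDC1, DCP1 and YDR374C most.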

Other observations

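The genes next to the 10 decay genes on the chromosome, in the gene order of RefSeq assembly R64, were looked at as well. Of 20 such neighbours 18 were tested, 4 were higher, 9 were lower and 5 did not pass, so that 72.2% were called, beside 73.1% of all tested genes. They were listed after the data had been seen. MTC1, next to LSM1, had log2 ratios of 0.39 on both arrays (mean 0.39 ± 0.034, SE, n = 2, limma adjusted p = 1.13e-07), close in size to LSM1 (0.43), while GCD14 on the other side had -0.16 ± 0.034. YEL014C, next to EDC3, had 0.29 and 0.25 (mean 0.27 ± 0.035), beside 0.26 for EDC3, while NPP2 on its other side had -0.21 ± 0.039. OKP1, next to PBP1, had -0.19 ± 0.035, beside -0.15 for PBP1. Both tested neighbours of DCP2, NCS2 and MLS1, had -0.17 with SEs of 0.035 and 0.036, against 0.13 for DCP2.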
